A study of Mus musculus with 4 samples.

Results

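The secreted Wnt antagonists were described as 9 genes, namely Sfrp1, Sfrp2, Frzb, Sfrp4, Sfrp5, Wif1, Dkk1, Dkk2 and Dkk3, out of 23185 named genes on the arrays. Each gene had 1 probe set, taken by gene symbol. Frzb, Sfrp4, Dkk2 and Wif1 had been picked because they differed between the BMS and CTR arrays, so their BMS minus CTR values are a description and carry no test. The other 5 genes were added because they belong to the same families. Of the 9 genes, 6 passed a filter that asked the highest of the 4 values to reach 6.05 on the log2 scale, the median of all named values. Sfrp2, Sfrp5 and Dkk1 lay below that value on every array. A gene can pass this filter through a single high array, so counts over the 6 genes are a description only.

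The arrays measured RNA of cells sorted from the lungs of adult Acta2-hrGFP;Cspg4-DsRED mice. Cells with the green reporter, driven by the smooth muscle actin promoter, and without the red reporter, driven by the promoter of a pericyte proteoglycan gene, were collected as airway smooth muscle. All 4 groups carried both reporters. For the VAS group the diet was sufficient in vitamin A, at 15 IU per gram. The VAD group ate a deficient diet with less than 0.1 IU per gram, for 3 days in one statement of the labels and 5 days in another. The CTR group ate powdered sufficient diet mixed with corn oil for 3 days, and the BMS group ate the same powder for 3 days plus 5 mcg per gram of BMS, which blocks every type of retinoic acid receptor. RNA of 3 mice was pooled for each group and run on 1 array, so no group has replicates, every difference below is between single arrays, and the spread between mice is unknown. The study asked how airway smooth muscle depends on retinoic acid, the hormone-like product of vitamin A.

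The reporter gene Acta2 stood at 11.96, 12.12, 11.98 and 11.95 in VAS, VAD, CTR and BMS on the log2 scale, and Cspg4, the gene of the excluded reporter, at 7.71, 8.22, 8.08 and 7.98, above the filter on every array. The median of all probe sets was 5.97 to 6.02, and the Pearson r between arrays, across probe sets, was 0.987 to 0.992. Of 18 airway smooth muscle markers, 17 passed the filter, with the muscarinic receptor gene Chrm3 below it. Of 23 adventitial fibroblast markers, 21 also passed, so genes typical of fibroblasts were measured beside those of muscle. In such bulk samples, fewer cells of a type and less RNA per cell cannot be told apart.

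Wnt proteins are secreted signals that bind Frizzled receptors together with the co-receptors LRP5 and LRP6, which stabilises beta-catenin and turns on target genes. Secreted antagonists act outside the cell, in different ways. The secreted frizzled-related proteins, among them the product of Frzb, carry a Frizzled-like cysteine-rich domain and bind Wnt ligands. WIF1 binds Wnt ligands through a domain of its own. Dickkopf proteins such as DKK1 and DKK2 bind LRP5 and LRP6 and, with the Kremen receptors, remove them from the surface, while DKK3 is a divergent member whose action on Wnt signalling is less settled. In the lung, Wnt signals from and to the mesenchyme shape airway smooth muscle during development.

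**Figure D1:**
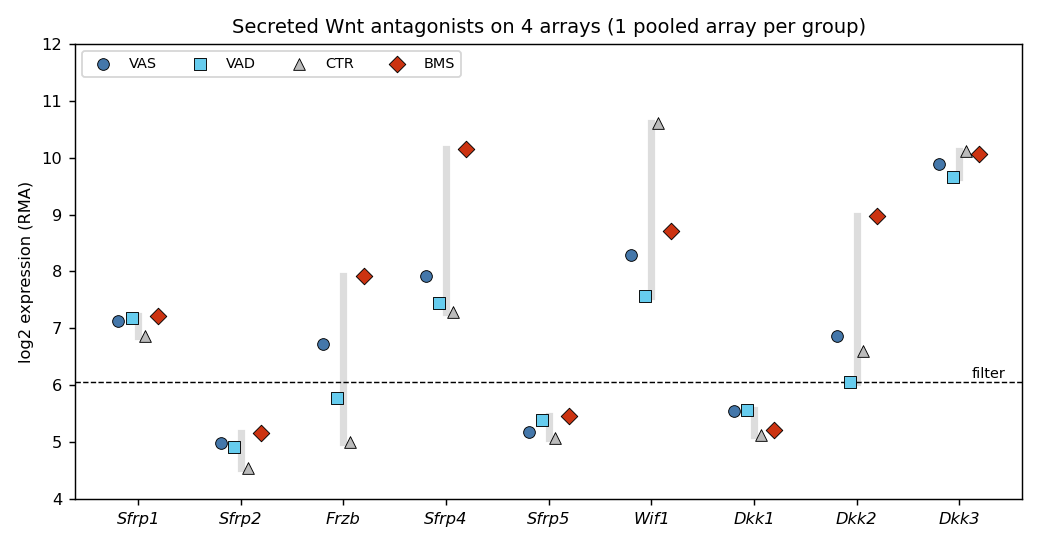
Log2 expression of the 9 antagonist genes (x axis) on the VAS, VAD, CTR and BMS arrays (symbols), with the filter value of 6.05 as a dashed line; each symbol is 1 array of 3 pooled mice and the grey bar spans the 4 values. Sfrp4 and Dkk2 stood highest in BMS, at 10.16 and 8.98, while Wif1 stood highest in CTR, at 10.60.

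Among the genes that encode secreted frizzled-related proteins, Frzb and Sfrp4 varied widely over the arrays. Frzb (Entrez gene 20378) was 6.72 in VAS, 5.78 in VAD, 5.01 in CTR and 7.92 in BMS. It lay below the filter value in VAD and CTR and above it in VAS and BMS. Its BMS level was 7.52-fold that of CTR and 2.29-fold that of VAS, and the log2 differences were -1.71 for CTR minus VAS and 1.20 for BMS minus VAS, with VAS between the other two.

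Sfrp4 (Entrez gene 20379) was 7.92, 7.44, 7.28 and 10.16 in VAS, VAD, CTR and BMS. The BMS array stood apart from the other 3, which lay within 0.63 of each other. The BMS level was 7.33-fold that of CTR, 4.72-fold that of VAS and 6.59-fold that of VAD.

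Sfrp1 (Entrez gene 20377) passed the filter and differed little, with 7.13, 7.19, 6.86 and 7.21. Its range of 0.36 lay close to the median range of all genes past the filter, 0.35. Sfrp2 (Entrez gene 20319), below the filter, was 4.99, 4.91, 4.54 and 5.16, and Sfrp5 (Entrez gene 54612) was 5.17, 5.38, 5.08 and 5.46. CTR was the lowest array for all 5 secreted frizzled-related genes, by between 0.09 for Sfrp5 and 1.71 for Frzb against VAS. It was the lowest array for 26.9% of all genes past the filter. Sfrp2 and Sfrp5 lay below the filter, and Frzb and Sfrp4 were picked on BMS minus CTR, so nothing is read from this count.

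Of the Dickkopf genes, Dkk2 (Entrez gene 56811) was 6.86, 6.06, 6.61 and 8.98 in VAS, VAD, CTR and BMS. As with Sfrp4, the BMS value stood above all others, 5.18-fold above CTR, 4.35-fold above VAS and 7.55-fold above VAD. Dkk1 (Entrez gene 13380), the best known LRP5 and LRP6 inhibitor, lay below the filter on every array, with 5.54, 5.56, 5.12 and 5.20. Dkk3 (Entrez gene 50781) was 9.89, 9.66, 10.12 and 10.07, with a range of 0.46, which 69.2% of genes past the filter did not reach.

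Wif1 (Entrez gene 24117) had the widest range of the 9 genes, 3.04 on the log2 scale, and only 13 genes past the filter had a wider one. It was 8.29 in VAS, 7.56 in VAD, 10.60 in CTR and 8.71 in BMS. The CTR array stood alone, 4.97-fold above VAS, and the BMS value lay between the 2 controls. The BMS minus CTR difference of -1.89 therefore becomes 0.42 when VAS is the control. The ranges of Frzb, Sfrp4 and Dkk2 were 2.91, 2.87 and 2.92, exceeded by 17, 19 and 16 genes. The 95th percentile of ranges over all genes past the filter was 0.98, and these 4 genes had been picked for their size of change.

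The sequences just upstream of the transcription start are shown for Frzb and Dkk2, which stood high together in BMS, and for Wif1, which went the other way against CTR. RefSeq's promoter table for GRCm38.p6 held 6 of the 9 genes. Sfrp4, Sfrp1 and Dkk3 had no entry in it. The 250 bases before the start are written 5′ to 3′ on the gene's strand, with capitals for matches to AGGTCA or GGGTCA, half-sites that retinoic acid receptors and other nuclear receptors bind, to CTTTGA, the core of TCF/LEF sites through which beta-catenin acts, or to TATAAA, the TATA box, on either strand. No 2 of the motifs overlapped in these 3 windows.
Frzb, minus strand, chr2:80447397-80447646: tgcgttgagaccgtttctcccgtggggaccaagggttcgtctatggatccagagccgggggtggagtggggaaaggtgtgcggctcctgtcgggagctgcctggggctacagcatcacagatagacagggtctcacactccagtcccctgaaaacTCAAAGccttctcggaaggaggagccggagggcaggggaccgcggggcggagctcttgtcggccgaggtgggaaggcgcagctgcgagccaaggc
Dkk2, plus strand, chr3:132085042-132085291: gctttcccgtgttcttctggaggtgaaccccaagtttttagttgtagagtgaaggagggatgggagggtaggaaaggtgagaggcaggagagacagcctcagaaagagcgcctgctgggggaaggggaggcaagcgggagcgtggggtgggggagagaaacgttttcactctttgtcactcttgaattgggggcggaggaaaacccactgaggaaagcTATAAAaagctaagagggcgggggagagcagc
Wif1, plus strand, chr10:121033754-121034003: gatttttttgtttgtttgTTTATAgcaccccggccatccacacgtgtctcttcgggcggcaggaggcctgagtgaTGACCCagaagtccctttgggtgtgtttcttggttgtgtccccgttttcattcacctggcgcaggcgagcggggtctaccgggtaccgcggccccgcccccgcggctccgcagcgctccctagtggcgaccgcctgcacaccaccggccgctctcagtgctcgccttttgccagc

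The Frzb window held CTTTGA on the opposite strand, written TCAAAG, at position -95 from the start. Over all 32851 promoters of the same length, 13.8% held this motif. The Dkk2 window held TATAAA at position -32 from the start that the promoter table uses, and RefSeq's gene record begins further upstream, inside this window. TATAAA is a motif that 12.4% of promoters held. The Wif1 window held GGGTCA on the opposite strand, written TGACCC, at position -175, and TATAAA on the opposite strand at position -232. GGGTCA was present in 11.6% of promoters and AGGTCA in 14.0%. AGGTCA was in none of the 6 windows, GGGTCA also in those of Sfrp5 and Dkk1, and CTTTGA also in that of Dkk1. These matches describe the letters of short windows and say nothing of binding.

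In the antagonist experiment, BMS against CTR, 3 of the 6 genes past the filter were at least 2-fold higher (Frzb, Sfrp4 and Dkk2) and 1 was at least 2-fold lower (Wif1). Over all 12395 genes past the filter, the shares beyond 2-fold were 1.07% upward and 0.282% downward. The rule picked these 4 genes on this difference, so nothing is read from the count. The 5 genes that were not picked differed by 0.36 (Sfrp1), 0.62 (Sfrp2), 0.38 (Sfrp5), 0.08 (Dkk1) and -0.05 (Dkk3), and none of these reached 2-fold. They all lay inside the middle 95% of differences over all genes past the filter, -0.53 to 0.65. Of all 9 genes, picked ones included, 7 were above 0, as were 51.4% of genes past the filter. That count holds picked genes and genes below the filter, so nothing is read from it beside that share.

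**Figure D2:**
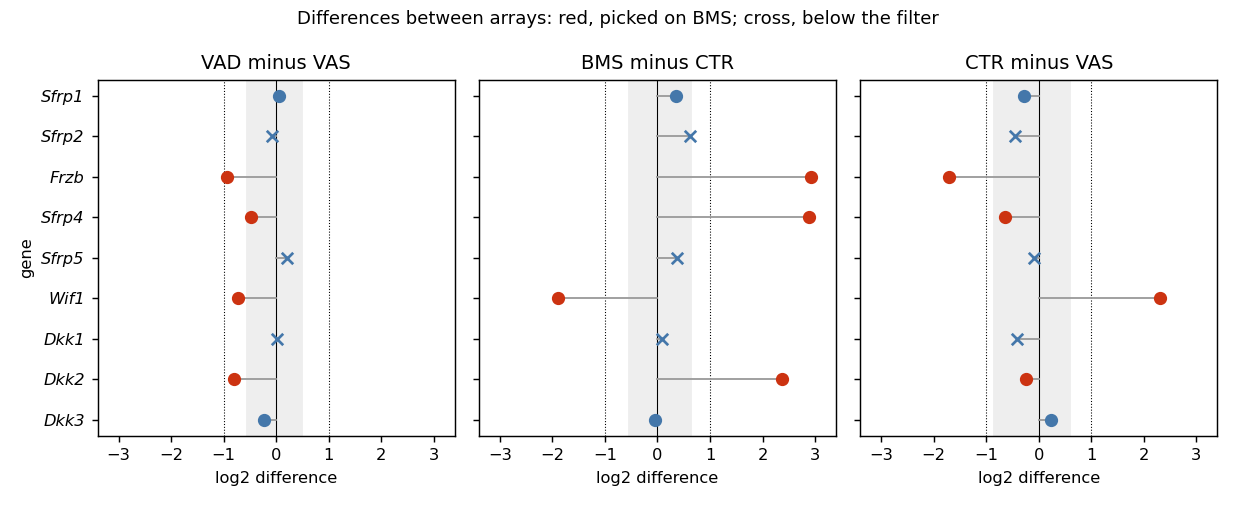
Log2 differences of the 9 genes (y axis) for VAD minus VAS, BMS minus CTR and CTR minus VAS; points are genes, red for the 4 picked on BMS, crosses for the 3 below the filter, the grey band is the middle 95% of all genes past the filter and dotted lines mark 2-fold. Frzb, Sfrp4 and Dkk2 lay right of 2-fold in BMS minus CTR (2.91, 2.87 and 2.37) and left of 0 in VAD minus VAS (-0.94, -0.48 and -0.80).

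In the diet experiment, VAD against VAS, none of the 6 genes reached 2-fold, with a background of 0.234% of genes beyond 2-fold upward and 0.42% downward. The 4 genes picked on BMS all stood lower in VAD. Frzb differed by -0.94, Dkk2 by -0.80, Wif1 by -0.73 and Sfrp4 by -0.48. A lower VAD minus VAS value was seen for 0.524%, 0.847%, 1.13% and 3.52% of genes past the filter, so the first 3 lay outside the middle 95% of genes, -0.55 to 0.50, and Sfrp4 inside it. Sfrp1 differed by 0.06, Sfrp2 by -0.07, Sfrp5 by 0.21, Dkk1 by 0.02 and Dkk3 by -0.23.

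For Frzb, Sfrp4 and Dkk2 the vitamin A-deficient diet and the receptor antagonist thus gave differences of opposite sign. With 1 array on each side, the difference between the experiments was not tested. Against CTR in place of VAS, the VAD differences were 0.78 for Frzb, 0.15 for Sfrp4, -0.54 for Dkk2 and -3.04 for Wif1, so the sign turned for Frzb and Sfrp4. With that control 0 of the 6 genes were at least 2-fold higher and Wif1 was at least 2-fold lower, beside 1.4% and 0.363% of all genes.

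The 2 controls, both vitamin A-sufficient, also differed for some of these genes. In CTR minus VAS, Wif1 was 2.31 higher and Frzb differed by -1.71, the 2 genes past 2-fold, where the shares of all genes beyond 2-fold were 0.323% upward and 1.71% downward. Sfrp4 differed by -0.63, Dkk2 by -0.25, Sfrp1 by -0.27 and Dkk3 by 0.23. The controls also differed in experiment, form of the diet, corn oil and pool of mice, which cannot be told apart. Against VAS in place of CTR, Sfrp4, Dkk2 and Frzb were at least 2-fold higher in BMS, with 2.24, 2.12 and 1.20. The share of all genes that far higher was 0.565%. Sfrp4, Dkk2 and Frzb had been picked on this same BMS array, so VAS is no independent check and nothing is read from their count beside that share. No member was at least 2-fold lower in BMS than in VAS, beside 1.46% of all genes. BMS minus CTR and CTR minus VAS share the CTR array, as VAD minus VAS and CTR minus VAS share VAS, so opposite values in such pairs follow in part from the shared array.

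A fit over all 4 arrays set VAD and BMS against VAS and CTR, with the experiment as a block and 1 residual degree of freedom. Using limma with Benjamini-Hochberg adjustment, 0 of 12395 genes (0%) were called at an adjusted p of 0.05, none of the members among them, and 476 genes (3.84%) had an unadjusted p under 0.05. Wif1 was the member among those 476, with a mean difference of -1.31 ± 0.29 (SE), lower in both experiments, an unadjusted limma p of 0.00707 and an adjusted p of 1. Without the block its SE was 0.80 and the unadjusted limma p 0.161, and without the CTR array and the block its difference was -0.15. Sfrp4 had a mean difference of 1.20 ± 0.77 (SE), Frzb 0.99 ± 0.88 (SE) and Dkk2 0.79 ± 0.73 (SE), all with an adjusted limma p of 1. The fit uses the BMS array, so for these 4 genes it is not independent of how they were picked. Of the members that were not picked, Sfrp1 had 0.21 ± 0.15 (SE) and Dkk3 -0.14 ± 0.14 (SE), both also with an adjusted limma p of 1.

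Genes with the most similar course over the 4 arrays were found by the Euclidean distance between profiles centred on their own mean, in log2 units. Sfrp4 and Dkk2 were among each other's 5 nearest genes, at a distance of 0.51, and both had Fap, a surface protease of activated fibroblasts, as the nearest gene, at 0.34 and 0.33. Itih5, of a family of hyaluronan-binding secreted proteins, Meox1, a mesodermal homeobox gene, and Cilp, a cartilage and matrix protein, completed both lists, at 0.34 to 0.64. For Frzb the nearest genes were Itih5 at 0.60, Meox1 at 0.68, Tecrl at 0.75, the matrix gene Fbln2 at 0.77 and the proteoglycan gene Epyc at 0.83. Epyc passed the filter through the BMS array alone. Frzb itself lay 0.89 from Sfrp4 and 1.19 from Dkk2. The distances use the BMS array, on which Frzb, Sfrp4 and Dkk2 were picked. Closeness of these genes to each other and to other genes high in BMS therefore follows in part from the pick. Fap was 6.60, 5.86, 6.01 and 8.47 in VAS, VAD, CTR and BMS, and Itih5 was 7.55, 6.72, 6.50 and 9.38.

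Wif1 had no such close partner. Its nearest gene, the immunoglobulin heavy chain joining segment Ighj4, lay 0.86 away, with 7.01, 7.17, 9.04 and 7.60, followed by the protease gene Adamts10 at 1.19, Tdgf1 at 1.24, the immunoglobulin gene Ighm at 1.29 and Pcdhgc5 at 1.33. Tdgf1 and Pcdhgc5 passed the filter through the CTR array alone, the array where Wif1 was also highest. Between members, Wif1 lay 3.72 from Frzb and 3.44 from Sfrp4. These distances rest on 4 arrays and describe likeness only.

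Of 21 adventitial fibroblast markers past the filter, 18 stood higher in BMS than in CTR, as Frzb, Sfrp4 and Dkk2 did, where Wif1 went the other way. The list, drawn up for these arrays when values of 9 of its 24 genes were already known, is no independent evidence of a direction. In BMS minus CTR, 12 of its 21 genes past the filter stood 2-fold or more above CTR and 0 that far below. Over all genes these shares were 1.07% and 0.282%. The list had a median of 1.21, beside 0.01 over all genes. Fap was 2.47, Dpp4, a surface peptidase, 2.20, and Fbln2 2.07 higher, and all 3 were among the 9 genes already known. Of the 12 genes past the filter whose values had not been known, 3 were at least 2-fold higher and the median was 0.35. In CTR minus VAS the list went the other way, with 12 of 21 at least 2-fold lower, beside 1.71% of all genes, and a median of -1.02. In VAD minus VAS its median was -0.14, with 1 gene, Dpp4, at least 2-fold lower. The summed level of the 23 measured markers, on the linear scale, was 32017 in VAS, 28783 in VAD, 22690 in CTR and 35043 in BMS. Of the defining markers, Ly6c1 and Smpd3 lay below the filter, while Pi16 (10.87, 10.77, 8.74 and 9.95) and Dcn (12.56, 12.42, 12.47 and 12.62), both named after their values were seen, lay above it on every array. The part of fibroblast RNA in the differences of Frzb, Sfrp4 and Dkk2 between BMS and CTR was not tested.

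BMS and VAS were closer in fibroblast markers than BMS and CTR were. In BMS minus VAS the list had a median of 0.29. Of its 21 genes, 3 lay past 2-fold upward, beside 0.565% of all genes. These were Fap with 1.87, Dpp4 with 1.18 and Fbln2 with 1.01, all with values already known. Past 2-fold downward lay 2 genes, Il33 with -1.01 and Adh7 with -1.48, beside 1.46% of all genes. Neither of these had been known. The 12 genes whose values had not been known had a median of -0.05, with 0 of them past 2-fold upward. In the same pair of arrays Sfrp4 was 2.24 higher and Dkk2 2.12 higher, more than each of those 21 markers, and Frzb was 1.20 higher. These 3 genes were picked for their changes on this same BMS array, so nothing is read from their size beside the markers. Pi16, a marker of adventitial fibroblasts, was 1.21 higher in BMS than in CTR and -0.92 against VAS.

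**Figure D3:**
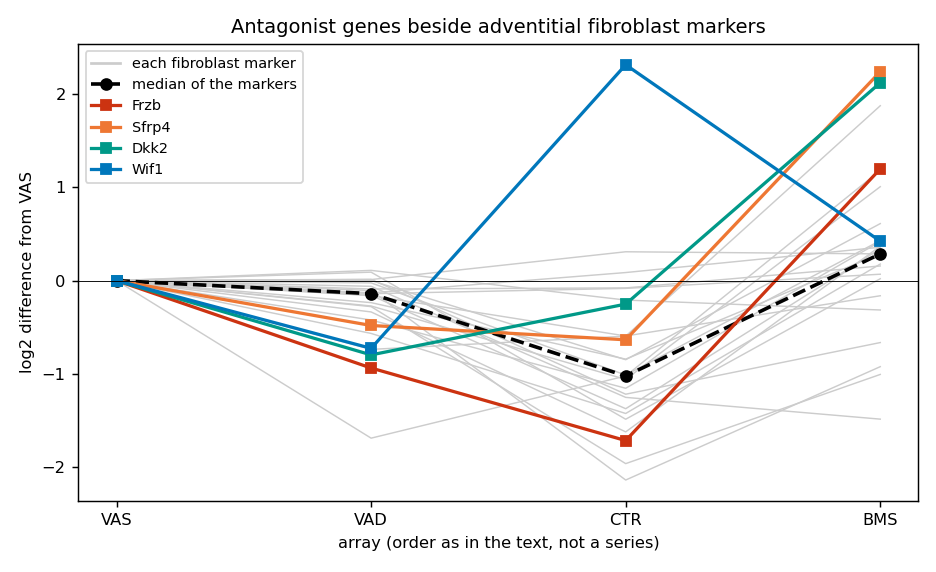
Log2 difference from the VAS array (y axis) on each array (x axis) for Frzb, Sfrp4, Dkk2 and Wif1 and for the 21 adventitial fibroblast markers past the filter (grey lines; dashed black line, their median); lines join single arrays and are not a time course. The marker median was -1.02 in CTR and 0.29 in BMS. Over the 12 markers whose values had not been known, the median was -0.72 in CTR and -0.05 in BMS. Sfrp4 and Dkk2 stood at 2.24 and 2.12 in BMS and Wif1 at 2.31 in CTR.

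Other marker lists had medians nearer to 0 than the 1.21 of the adventitial fibroblast list in BMS minus CTR. The 12 fibroblast genes whose values had not been known had a median of 0.35. The size of that gap thus depends in part on genes with values already known. Airway smooth muscle markers had a median of -0.16 in BMS minus CTR, with none past 2-fold and 1 of 17 genes above 0, beside 51.4% of all genes. In VAD minus VAS their median was 0.14, and 1 of 17, the receptor gene Chrm2 with -1.25, was at least 2-fold lower. Their leading genes in BMS minus CTR were Chrm2 with -0.78 and Pcp4 with -0.50. Alveolar fibroblast markers had a median of 0.22 in BMS minus CTR, with 0 of 13 past 2-fold. Pericyte and vascular smooth muscle markers had a median of -0.17 in BMS minus CTR, with Postn 0.65 higher and Notch3 at -0.40. In CTR minus VAS their median was 0.29, with 13 of 16 above 0, beside 50.4% of all genes. The 2 medians had the same signs as Wif1. The sort left out cells with the Cspg4 reporter, which pericytes carry, and the part of these cells in the Wif1 values was not tested.

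Frzb and Wif1 are known from cartilage, and chondrocyte markers were looked at for that reason. Of 20 measured, 11 lay below the filter on every array, among them Acan, Matn1, Cnmd and Hapln1. The other 9 passed it, among them the collagen genes Col2a1, Col9a2, Col9a3 and Col11a2. Of these 9 genes, 0 were 2-fold apart in BMS minus CTR. Their median was -0.19 and 2 of 9 were above 0, beside 51.4% of all genes. Sox9, a chondrocyte transcription factor also found in other lung cells, was 0.72 higher and Snorc differed by -0.57. In CTR minus VAS the chondrocyte median was 0.16, with 6 of 9 above 0, beside 50.4% of all genes. These are the signs of Wif1 as well, so such signs are not particular to the pericyte list. Of the tendon and perichondrium markers, Thbs4 and Cilp were the 2 genes past 2-fold of 7 in BMS minus CTR, with 3.21 and 2.49. Over all genes, 1.07% were that far higher. The values of Thbs4 and Cilp were already known when the list was drawn up, so nothing is read from that count. Of the 5 genes not known before, 0 were at least 2-fold higher and the median was 0.09. The tendon genes Tnmd and Mkx lay below the filter, while Scx and Fmod passed it. Endothelial markers had a median of 0.18, with Tek, the angiopoietin receptor gene, 1.42 higher. The medians in BMS minus CTR were 0.10 for mesothelial, -0.06 for epithelial, 0.16 for macrophage and monocyte, and 0.11 for lymphocyte and granulocyte markers. In CTR minus VAS the last 2 lists had medians of -0.99 and -0.91. Among epithelial markers, the surfactant gene Sftpc was 10.86, 9.28, 7.32 and 9.15 in VAS, VAD, CTR and BMS, lowest in CTR as Frzb and Sfrp4 were. In VAD minus VAS the epithelial median was -0.46, with 2 of 7 at least 2-fold lower. In BMS minus VAS the medians were -0.63 for epithelial, -0.60 for macrophage and monocyte, and -0.80 for lymphocyte and granulocyte markers.

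The rest of the Wnt pathway, like the 5 antagonist genes that were not picked, showed no gene past 2-fold in BMS minus CTR. Of 102 measured genes on 6 lists, 77 passed the filter. Of these, 0 were 2-fold apart in BMS minus CTR or in VAD minus VAS. Of all genes past the filter, 1.07% were that far higher and 0.282% lower in BMS minus CTR. In VAD minus VAS these shares were 0.234% and 0.42%, so a count of 0 among 77 lies near the background. The BMS minus CTR differences of the 77 genes ran from -0.37 to 1.00, with a median of 0.04 and 43 of 77 above 0. The gene nearest to 2-fold was Twist1, a mesenchymal transcription factor, which was 7.71, 7.11, 6.57 and 7.56 in VAS, VAD, CTR and BMS and thus lower in BMS than in VAS. In CTR minus VAS, 2 of the 77 were 2-fold lower, Gpc3 with -1.27 and Twist1 with -1.14, beside 1.71% of all genes. In BMS minus VAS, 2 were at least 2-fold higher, Mest with 1.11 and Wnt5a with 1.06, beside 0.565% of all genes. Gpc3 was 1.55 higher in VAD than in CTR, the 1 pathway gene past 2-fold there, beside 1.4% of all genes upward.

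**Figure D4:**
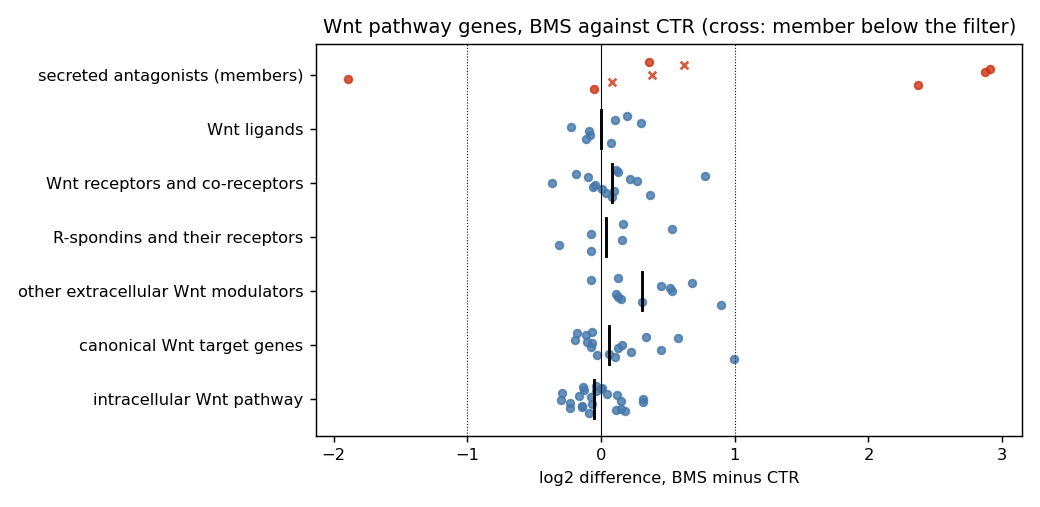
Log2 differences between the BMS and CTR arrays (x axis) for the 9 antagonist genes (red, crosses below the filter) and 6 lists of Wnt pathway genes past the filter (blue; each point is 1 gene and black bars are list medians; dotted lines mark 2-fold). No blue point lies beyond 2-fold, and the list medians run from -0.05 to 0.30.

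The binding partners of the antagonists were close between BMS and CTR. Lrp5 differed by -0.05 and Lrp6 by -0.06 in BMS minus CTR. Both stood lowest in VAS, with Lrp5 at 9.26, 9.66, 9.67 and 9.62 and Lrp6 at 9.12, 9.47, 9.68 and 9.62. Kremen1 was 8.66, 8.61, 8.58 and 8.66, and Kremen2 lay just below the filter on every array, at 6.02 to 6.05. Among receptors, 15 of 18 passed the filter with a median of 0.08, led by Fzd4, which was 0.77 higher in BMS than in CTR and 0.19 higher than in VAS. Of 19 Wnt ligands 8 passed, with a median of -0.003. Wnt5a, a ligand mainly of beta-catenin-independent signalling, was 7.55, 8.06, 8.31 and 8.61. Of the R-spondins, which amplify Wnt signals, and their receptors, 6 of 9 passed, with a median of 0.04 and Rspo3 0.53 higher.

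Other extracellular modulators had the highest median of the 6 lists, 0.30, with 10 of 11 above 0, where 51.4% of all genes were. It was -0.20 in VAD minus VAS, -0.21 in CTR minus VAS and 0.09 in BMS minus VAS, with 7 of 11 above 0 in the last. Mest was 0.90 higher in BMS than in CTR, Igfbp4, an insulin-like growth factor binding protein that can also inhibit Wnt signalling, 0.68, and the glypican gene Gpc3 0.53, which was -0.74 against VAS. Notum, a secreted enzyme that inactivates Wnt ligands, differed by 0.13 in BMS minus CTR and by -0.57 in VAD minus VAS.

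Canonical target genes, which report beta-catenin activity in many tissues, had a median of 0.06 in BMS minus CTR, with 9 of 17 above 0, and 0.03 in VAD minus VAS, beside 0.01 over all genes in both. Axin2, the most widely used of them, was 8.01, 8.11, 8.48 and 8.41 in VAS, VAD, CTR and BMS, so the pair within each experiment lay closer together than the 2 experiments did. Lef1 was 6.09, 5.97, 6.22 and 6.04, and Nkd2, a feedback inhibitor, was 0.33 higher in BMS than in CTR. Ccnd1, a cell cycle gene, was 0.57 higher and Apcdd1, a membrane inhibitor of Wnt signalling, 0.45 higher. Lgr5, an R-spondin receptor and target gene, was 0.74 higher in VAD than in VAS and 0.15 higher in BMS than in CTR. The intracellular pathway genes, all 24 of them past the filter, had a median of -0.05.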

How the data were processed

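RNA of sorted airway smooth muscle, from 3 pooled mice per group, was measured on 4 arrays, and the sample titles give the groups. The authors deposited log2 values made with RMA (background correction, normalization between arrays, probe set summary) in affy 1.36.1 under R 2.15.1, per the submitters' processing notes. Such normalization gives all arrays nearly one distribution, so a change common to most genes is hidden. Scanner intensities were not used here, so detection over background is unknown. Precision is limited by the number of arrays. Of 25206 probe sets, 23185 had 1 gene symbol in GEO's platform annotation, which can be old, and all matched RefSeq (GRCm38.p6) by Entrez number. The other 2021 are unnamed here.

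Genes whose highest value reached the median of all named values were kept, and differences of 2 log2 values were counted at 2-fold. The joint fit used limma 3.58.1 (lmFit, eBayes) in R 4.3.3. Python 3.11.15, pandas 2.3.3, numpy 2.4.6 and matplotlib 3.10.9 did the rest. The steps were tested on simulated data. Alternatives were no filter, a higher one (75th percentile, 7.67), 1.5-fold and 3-fold in place of 2-fold, repeated quantile normalization, cyclic loess, other controls and other limma settings.

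The members and gene lists were chosen with earlier results of these data known. Named genes are the members, their binding partners and pathway readouts, the reporter genes, up to 3 genes per list by absolute BMS minus CTR and up to 2 by VAD minus VAS, and the 5 nearest profiles of each picked member, without provisional names. Markers given as above or below the filter, and fibroblast genes so marked, were named after their values were seen.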

Additional observations from a re-analysis of the deposited data

Results flagged for a closer look

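Frzb, Sfrp4 and Dkk2 differed in opposite directions in the 2 experiments, higher in BMS than in CTR and lower in VAD than in VAS. The BMS minus CTR difference exceeded the VAD minus VAS difference by 3.85 for Frzb, 3.35 for Sfrp4 and 3.17 for Dkk2 on the log2 scale. Most of each value is the BMS minus CTR difference on which these genes were picked. Against CTR, the VAD difference was 0.78 for Frzb, 0.15 for Sfrp4 and -0.54 for Dkk2. Each value rests on 4 single arrays, and the difference between the experiments was not tested.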

How the results depend on the processing

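The counts of members past 2-fold, and the joint fit's count of 0, were recomputed 53 times under other settings, and 47 of these counts stayed within 1.5 times. At 1.5-fold, 3 members were lower in VAD than in VAS and 2 were lower in CTR than in VAS. With CTR as control, or with the mean of both controls, 1 member was lower in VAD (main count 0). With VAS or the mean of both controls, 0 were lower in BMS (main count 1). With VAS as control, 19 of 53 named genes changed sign in BMS, among them 4 that were past 2-fold against CTR: Wif1 (0.42), Ighj4 (0.58), Pi16 (-0.92) and Sftpc (-1.71). With CTR as control, 28 of 53 changed sign in VAD, of which Sftpc (1.96, and 0.19 with the mean of both controls) had been past 2-fold. Repeated quantile normalization moved the members' differences by up to 0.06 and cyclic loess by up to 0.03, with 0 sign changes among 27 differences each. Leaving out each array, without the block, the limma fit called 0 to 0 members. Over these fits the mean difference ran from -0.16 (without BMS) to 2.56 (without VAD) for Sfrp4, from -0.67 to 2.25 for Dkk2, from -0.08 to 2.05 for Frzb, where it was 0.13 without CTR, and from -2.47 (without VAS) to -0.15 (without CTR) for Wif1. In each, one side or the other is a single array, assumed to vary like the rest. With all arrays and no block, 0 members had an unadjusted limma p under 0.05, against 1 with the experiment as a block. The labels give no replicate numbers to pair. With 1 residual degree of freedom, a count of 0 calls does not show absence of change.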

Other observations

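Among the 77 Wnt pathway genes past the filter, VAS was the array with the lowest value for 30 genes (39.0%), against 30.5% of all genes, and BMS the array with the highest value for 27 genes (35.1%), against 27.3% of all genes. Lgr5 was 8.74 in VAS and 9.48, 9.45 and 9.60 in VAD, CTR and BMS. Wnt5a stood 0.52 higher in VAD than in VAS and 0.30 higher in BMS than in CTR. These shares describe single arrays and carry no test.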
